A study of Mus musculus with 12 samples.

Results

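The genes described here are 10 markers of Kupffer cells and other macrophages, Marco, Vsig4, Csf1r, C1qa, C1qb, C1qc, Clec4f, Cd163, Cd5l and Cd68, in offspring whose mothers had or had not received taurine in pregnancy. They were chosen on the liver contrast of the same arrays, in which they had been seen to be lower, so every liver value of these 10 genes is given as a description without a test, and only the muscle contrast was tested. The 10 genes are read by 15 probe sets that carry a single gene symbol, out of 45101 probe sets in the table. Of all genes with such a probe set, 14276 had one above the limit for dim probes in liver and 13829 in muscle.

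The animals were C57BL/6 mice of 4 weeks, born to dams fed a normal protein diet (20% casein). The NP+tau dams drank water with 1% taurine through pregnancy and the NP dams drank plain water. RNA of liver and of quadriceps muscle from 3 NP+tau and 3 NP offspring was hybridised to Affymetrix mouse arrays, 12 arrays in all, and by the study's methods each animal came from a different dam and gave both its liver and its muscle. Values are log2 expression values made by robust multi-array average (RMA), a summary of the probes of a set after background correction and quantile normalisation, and a difference of 1 is a doubling of the signal.

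Kupffer cells are the macrophages that line the liver sinusoids, where they take up particles, microbes and aged red cells from the portal blood and renew themselves locally under signals through the CSF1 receptor. In mice they are known by the C-type lectin Clec4f, by the scavenger receptor Marco and by Vsig4, a receptor for fragments of complement C3. Macrophages of many tissues, skeletal muscle among them, carry Csf1r and Cd68 and make the 3 chains of C1q, which starts the classical pathway of complement.

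The arrays carried signals that bear on any reading of the members. Liver NP+tau replicate 1 stood apart, with a median absolute deviation from the median array of 0.450, against 0.0769 to 0.169 in the other 5 livers and 0.0746 to 0.188 in the muscles. Sex and treatment overlapped. Xist, the RNA made from the inactive X chromosome in females, read 11.08, 5.96 and 5.07 in the NP+tau livers and 11.75, 11.63 and 11.78 in the NP livers. The Y-linked gene Eif2s3y read 3.78, 8.55 and 8.57 in NP+tau livers, against 3.61, 3.64 and 3.58 in NP livers. NP+tau replicates 2 and 3 thus had the male pattern and the other 4 livers the female pattern, and the muscles of the same replicate numbers had the same patterns. The methods of the study describe both sexes in every group, which the NP samples did not show. With no NP sample of the male pattern, sex and taurine cannot be told apart in replicates 2 and 3. Alb, the serum albumin gene of hepatocytes, lay between 14.95 and 15.05 in the 6 livers, and the mean level of 15 skeletal muscle genes between 14.06 and 14.16 in the 6 muscles.

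In livers of NP+tau offspring all 10 genes averaged lower than in NP livers. The differences ran between -2.04 for Marco and -0.72 for Clec4f on the log2 scale, with a median of -1.20 over the 10 genes, taking the probe set with the highest mean for each gene. The same median over all 14276 genes was -0.03. All 15 probe sets were below 0, and 7 of the 10 genes, or 11 of the 15 probe sets, had every NP+tau value below every NP value. Across all genes tested, 53.5% had a lower mean in NP+tau livers, 9.19% had all NP+tau values below all NP values and 6% had all of them above. Since the members were picked on this contrast, nothing is read from their count against these shares. In a whole-tissue extract, fewer macrophages and less of these RNAs per macrophage cannot be told apart.

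**Figure D1:**
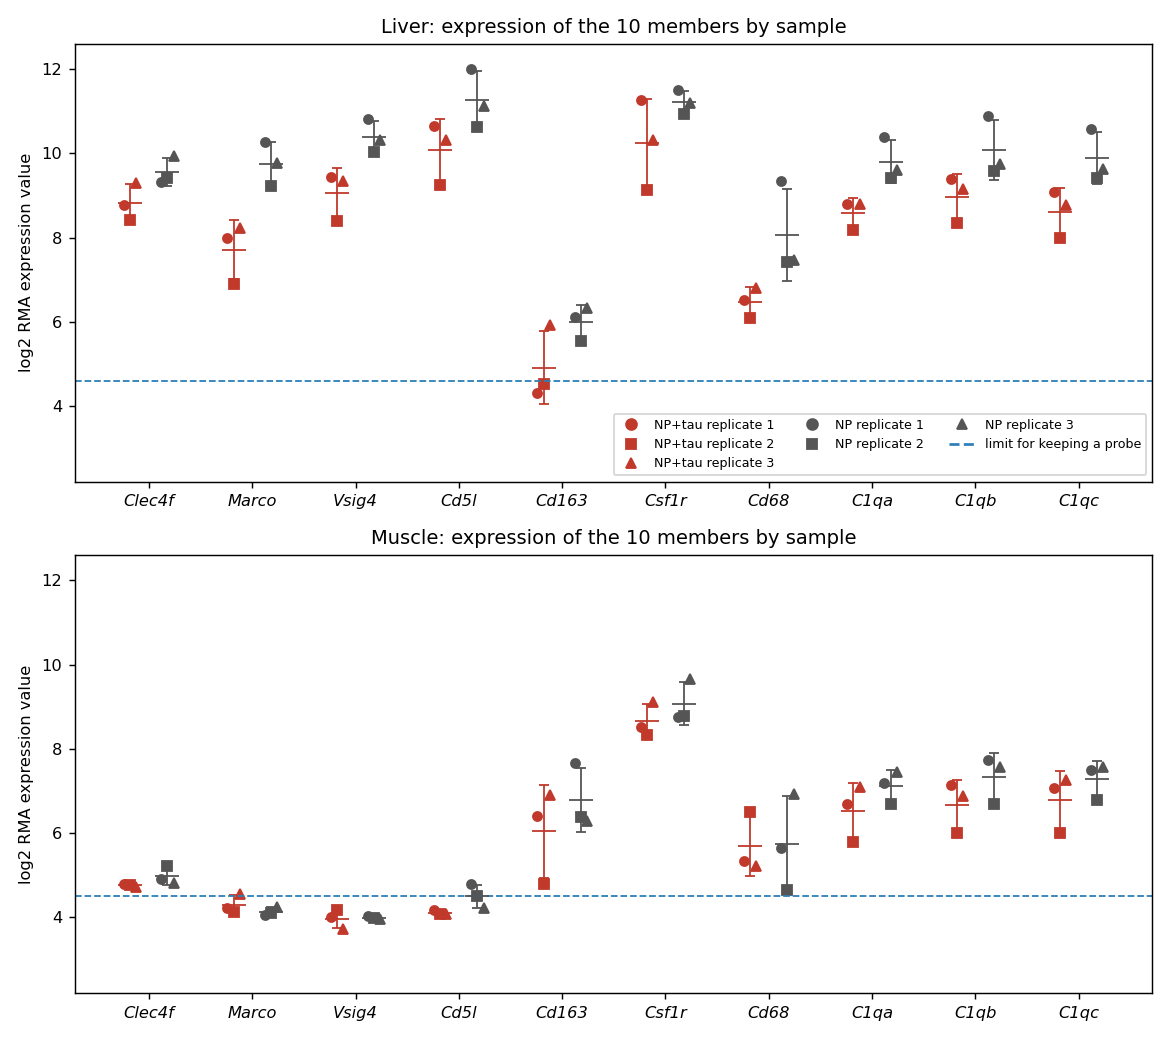
Log2 RMA expression value (y axis) of the 10 members (x axis) in liver (top) and muscle (bottom), with 1 symbol per sample, NP+tau in red left of NP in grey, bars for the mean and SD of 3 samples, and a dashed line for the limit below which probes were dropped. In liver the NP+tau samples of 7 members lie wholly below the NP samples. In muscle Marco, Vsig4, Clec4f and Cd5l lie close to the limit, and the groups of the brighter members overlap.

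Marco, Vsig4 and Clec4f are the receptors that set Kupffer cells apart from most other macrophages. Marco, which binds bacteria and other particles through a collagen-like trimer, read 7.99, 6.91 and 8.22 in NP+tau livers and 10.26, 9.23 and 9.77 in NP livers. Its means were 7.71 ± 0.70 in NP+tau livers and 9.75 ± 0.51 in NP livers (SD, n = 3 each), a 4.12-fold lower signal. The groups were about 1 unit apart, the widest gap between the highest NP+tau and the lowest NP liver among the members. A second Marco probe set read 7.64, 5.88 and 7.29 in NP+tau livers and 9.17, 8.36 and 8.81 in NP livers, also without overlap. Vsig4 read 9.45, 8.39 and 9.35 in NP+tau livers and 10.81, 10.04 and 10.32 in NP livers, with means of 9.06 ± 0.58 in NP+tau livers and 10.39 ± 0.39 in NP livers (SD, n = 3 each), which is 2.51-fold lower. Clec4f, the lectin most restricted to Kupffer cells in mice, read 8.77, 8.42 and 9.29 in NP+tau livers and 9.32, 9.41 and 9.93 in NP livers. The highest NP+tau value of Clec4f lay just under the lowest NP value, and its 1.65-fold lower signal was the smallest difference of the 10.

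Promoters of 4 members are shown because most members varied together across livers and because macrophage genes are commonly bound by the ETS factor PU.1. The core motif of PU.1, GAGGAA, was searched on both strands. Marco, Vsig4 and C1qb stand for the members with the motif and Cd163 for those without it. RefSeq windows of 300 bases, 250 before and 50 from the annotated start on, were taken in assembly GRCm38.p6, which placed Marco at chr1:120504975-120505274, minus strand, Vsig4 at chrX:96293389-96293688, minus strand, C1qb at chr4:136886151-136886450, minus strand and Cd163 at chr6:124304401-124304700, plus strand. Each is printed 5′ to 3′ on the strand of the gene, with GAGGAA in capitals.
Marco: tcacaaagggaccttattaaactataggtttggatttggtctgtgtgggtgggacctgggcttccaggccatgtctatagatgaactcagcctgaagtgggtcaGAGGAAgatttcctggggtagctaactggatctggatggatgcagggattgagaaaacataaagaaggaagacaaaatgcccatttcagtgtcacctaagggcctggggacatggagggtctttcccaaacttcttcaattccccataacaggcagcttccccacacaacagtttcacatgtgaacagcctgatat
Vsig4: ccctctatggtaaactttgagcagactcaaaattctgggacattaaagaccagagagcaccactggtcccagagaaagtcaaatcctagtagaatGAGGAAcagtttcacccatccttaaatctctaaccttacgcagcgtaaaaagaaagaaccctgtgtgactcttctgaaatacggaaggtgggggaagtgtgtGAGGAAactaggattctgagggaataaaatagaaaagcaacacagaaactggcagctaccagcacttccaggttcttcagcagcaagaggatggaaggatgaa
C1qb: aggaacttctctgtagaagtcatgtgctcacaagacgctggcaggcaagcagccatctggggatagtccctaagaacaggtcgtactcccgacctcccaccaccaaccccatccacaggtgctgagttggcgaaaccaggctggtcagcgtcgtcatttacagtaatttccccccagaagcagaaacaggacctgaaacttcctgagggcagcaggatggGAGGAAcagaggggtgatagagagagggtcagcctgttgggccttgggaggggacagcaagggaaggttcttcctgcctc
Cd163: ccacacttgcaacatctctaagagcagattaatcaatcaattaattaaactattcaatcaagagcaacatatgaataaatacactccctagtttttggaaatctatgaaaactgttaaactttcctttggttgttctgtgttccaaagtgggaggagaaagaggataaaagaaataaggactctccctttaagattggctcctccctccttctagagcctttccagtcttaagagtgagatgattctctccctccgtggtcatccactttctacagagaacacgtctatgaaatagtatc

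Counting the first transcribed base as 0, the match began at -146 in Marco, at -155 and -53 in Vsig4 and at -30 in C1qb, and the Cd163 window held none. The table held windows for 8 of the members off chromosome 18, and 6 of these 8 had GAGGAA or its reverse complement TTCCTC, against 28.3% of the 32851 promoters in the table. The others with a match were C1qc, Cd5l and Cd68, and Clec4f had none. TGCTGA, the core of the site bound by MAF factors, was in 4 of the 8 windows and in 19.5% of all promoters. The AP-1 site TGANTCA was in 1, that of Cd68, and in 7.81% of all promoters, and TATAAA was in 0 of the 8 and in 13.6% of all. No matches of these 4 motifs overlapped each other in the member windows, and a match of letters is not a bound site.

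The C1q chains lie beside each other on chromosome 4, where the span of the 3 genes in GRCm38.p6 is 18.7 kb. C1qa read 8.80, 8.19 and 8.79 in NP+tau livers and 10.39, 9.42 and 9.61 in NP livers, 2.32-fold lower. C1qc read 9.09, 7.98 and 8.78 in NP+tau livers and 10.59, 9.43 and 9.64 in NP livers, 2.41-fold lower. Neither gene's groups overlapped. C1qb has 3 probe sets, of which the brightest read 9.40, 8.35 and 9.16 in NP+tau livers and 10.90, 9.59 and 9.76 in NP livers, 2.16-fold lower without overlap. The other C1qb probe sets differed by -0.91, without overlap, and by -1.26, where NP+tau replicate 3 at 8.20 was level with NP replicate 2 at 8.19. Over the 6 livers the chains correlated with each other at r between 0.97 and 0.99.

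Csf1r, the receptor for CSF1 and IL-34 on which macrophage survival depends, gave unequal answers from its 3 probe sets. The brightest read 11.26, 9.14 and 10.32 in NP+tau livers and 11.50, 10.95 and 11.19 in NP livers, so that NP+tau replicate 1 lay among the NP livers. The other probe sets read 7.83, 7.47 and 8.14 in NP+tau livers against 9.30, 8.92 and 8.98 in NP livers, and 8.61, 8.01 and 8.51 in NP+tau livers against 9.43, 9.29 and 9.22 in NP livers. In both of these every NP+tau liver was below every NP liver, and the array that disagreed in the brightest set was the one that stood apart over all probe sets. Cd68, a glycoprotein of macrophage lysosomes, read 6.51, 6.10 and 6.80 in NP+tau livers and 9.33, 7.41 and 7.46 in NP livers. Its 3.02-fold lower mean was the next largest after Marco and drew much on NP replicate 1, which was nearly 2 units above the other NP livers.

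The groups of Cd5l and Cd163 overlapped. Cd5l, a secreted protein of macrophages also called apoptosis inhibitor of macrophage, read 10.66, 9.25 and 10.32 in NP+tau livers and 12.01, 10.64 and 11.13 in NP livers. NP+tau replicate 1 was level with NP replicate 2, and the means of 10.08 ± 0.74 in NP+tau livers and 11.26 ± 0.69 in NP livers (SD, n = 3 each) differed by 2.27-fold. Cd163, the receptor that clears complexes of haemoglobin and haptoglobin, read 4.30, 4.52 and 5.91 in NP+tau livers and 6.11, 5.54 and 6.32 in NP livers. NP+tau replicates 1 and 2 were below the limit of 4.60 for dim probes in liver, and replicate 3 lay within the NP range.

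**Figure D2:**
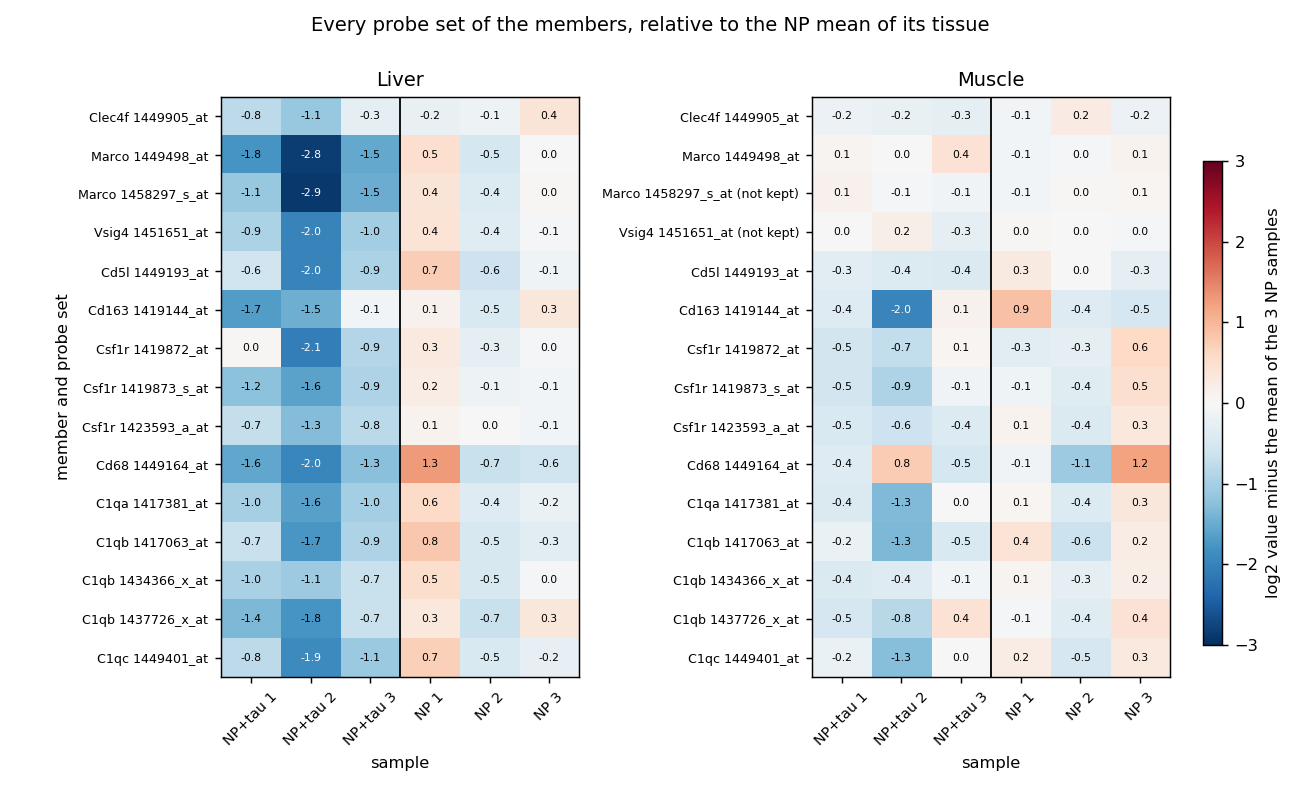
Log2 value of each of the 15 member probe sets (rows) in each sample (columns, NP+tau left of NP) minus the mean of the 3 NP samples of the tissue, in liver (left) and muscle (right), with blue for lower and red for higher. In liver NP+tau replicate 2 carries the lowest value of every probe set but that of Cd163. NP replicate 1 carries the highest of most, and NP replicate 3 that of Cd163, Clec4f and 1 C1qb probe set. In muscle the deviations are smaller and mixed in sign.

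Most of the 10 genes moved together from liver to liver and not only between the diets, with Clec4f and Cd163 following the others less closely. Averaged over the 10 genes, the deviation from the NP mean was -0.98, -1.88 and -0.91 in NP+tau replicates 1, 2 and 3, and 0.52, -0.44 and -0.09 in the NP replicates. NP+tau replicate 2 had the lowest value of 9 of the 10 genes and NP replicate 1 the highest of 8. For Clec4f NP replicate 1 was instead the lowest NP liver. NP+tau replicate 1 was below all NP livers for 8 of the 10 genes, replicate 2 for 10 and replicate 3 for 9. Among all genes these shares were 46.5%, 27.5% and 22.1%, so a low value in the array that stood apart was common over all genes. Across the 6 livers the 45 pairs of members correlated at r between 0.44 and 0.99, with a median of 0.89 and with Marco and Vsig4 at 0.99. The lowest values were mostly those of Clec4f or Cd163 with other members. Cd163 correlated with Csf1r at 0.44 and Clec4f with Cd68 at 0.53, while Clec4f and Cd163 correlated with each other at 0.89. These correlations share the arrays and the difference between the diets and are given without a test.

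The pattern of the members over the 6 livers was set against each of the 3383 genes with a standard deviation of 0.5 or more. The 8 genes closest to the members' mean were Cd24a (r = 0.997), Wfdc17 (r = 0.986), Ptprc, Itgal, Ms4a4d, Fermt3, Tgfbi and Sparcl1, the last at r = 0.975. Ptprc encodes CD45, a phosphatase of all white blood cells, and Itgal and Fermt3 serve leukocyte integrins. Cd24a read 7.09, 5.71 and 7.49 in NP+tau livers and 10.17, 8.23 and 8.85 in NP livers, with the same order of samples at both ends as the members. In all, 86 genes, or 2.54%, had an r over 0.9 with the members, over 6 arrays that share the group difference.

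Other genes of macrophages were lower in NP+tau livers on average as well, though none passed the test. Over the 29274 probe sets tested in liver, limma with Benjamini-Hochberg adjustment called 0%, with a smallest adjusted p of 0.718 and 1372 probe sets at an unadjusted p under 0.05. Of 48 macrophage genes that are not members, 44 could be read in liver, and 43 of these had a lower mean in NP+tau livers, with a median difference of -0.88 and 23 without overlap between the groups. Cyth4, Lair1 and Itgam reached the limit for dim probes only in NP replicate 1, so the filter itself favoured a lower NP+tau mean for them. By limma 19 of the 44 were lower at an unadjusted p under 0.05, against 4.31% of all genes. The 44 genes share cells and arrays with the members. Their lists were chosen with earlier results of these data known, so nothing is read from the count against that share.

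Among the other Kupffer cell genes 13 of 14 were lower, with a median of -0.73. Timd4, a receptor for phosphatidylserine on dying cells and a mark of long-lived resident macrophages, read 5.61, 4.71 and 5.59 in NP+tau livers and 6.30, 6.08 and 6.37 in NP livers (difference -0.94 ± 0.28 SE, adjusted p = 0.718 by limma). Adgre1, which encodes a surface antigen long used to stain mouse macrophages, read 7.95, 6.42 and 7.48 in NP+tau livers and 8.43, 7.99 and 7.97 in NP livers, with NP+tau replicate 1 just under the NP livers. Paqr9 alone in this list averaged higher, at 1.17 ± 0.70 (SE). All 30 pan-macrophage genes that could be read averaged lower, with a median of -1.09 and 16 without overlap. Cyth4, Lair1 and Itgam, which passed the limit only through NP replicate 1, are among them. The mean level of this list was 6.95, 6.47 and 6.86 in NP+tau livers and 8.71, 7.25 and 7.39 in NP livers. NP replicate 1 was thus well above the other NP livers, and the list's difference drew much on it. Ctss, a protease of antigen processing, read 8.74, 8.23 and 9.19 in NP+tau livers and 11.44, 9.89 and 9.95 in NP livers. Laptm5, a lysosomal membrane protein of blood cells, differed by -1.83 ± 0.47 (SE) and Fcgr3, a receptor for immunoglobulin G, by -1.63 ± 0.45 (SE), each with an adjusted p of 0.718 by limma.

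Genes around the CSF1 receptor and the regulators of Kupffer cells were less even. In the CSF1 receptor pathway 9 of 14 genes were lower and 0 were without overlap in that direction, and the ligand gene Csf1 read 8.12, 6.85 and 6.76 in NP+tau livers and 6.53, 6.78 and 6.77 in NP livers, high only in the array that stood apart. Of 16 transcription factors of Kupffer cells and targets of the liver X receptor, 12 were lower, 5 of them without overlap. The other 4 were higher, 0 without overlap, and the median was -0.25. Id1 differed by -1.80 ± 0.53 (SE). Zeb2, a repressor that maintains macrophage identity, read 4.80, 5.69 and 6.01 in NP+tau livers and 7.01, 6.60 and 6.94 in NP livers. Spic, the factor of red pulp macrophages that handle haem iron, differed by -0.75 ± 0.26 (SE), and Nr1h3, which encodes the liver X receptor alpha, by 0.06 ± 0.31 (SE). Spi1, which encodes PU.1 itself, read 5.86, 4.99 and 5.69 in NP+tau livers and 7.46, 5.91 and 5.82 in NP livers, with overlap.

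The uptake functions of these cells were covered by 15 scavenger and efferocytosis genes, 11 of them lower with a median of -0.51 and 9 without overlap. Axl, a receptor tyrosine kinase that bridges to dying cells through Gas6, read 5.16, 5.85 and 6.51 in NP+tau livers and 8.03, 7.19 and 7.17 in NP livers. Its relative Tyro3 lay the other way, at 6.63, 5.20 and 5.19 in NP+tau livers against 4.78, 5.04 and 4.68 in NP livers. Hmox1, the haem oxygenase with which Kupffer cells degrade haem, read 6.57, 7.48 and 7.25 in NP+tau livers and 10.04, 8.40 and 8.29 in NP livers. It is not in the scavenger list but in the pan-macrophage and iron-handling lists. Of 14 iron-handling genes 11 were lower and 3 higher, with a median of -0.23 and 3 of the lower ones without overlap. Lysosomal genes were lower in 15 of 17 cases with a median of -0.42. The complement components and receptors other than C1q, most of whose components hepatocytes make, had a median of -0.06 over 14 genes, with 11 lower and 0 without overlap.

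**Figure D3:**
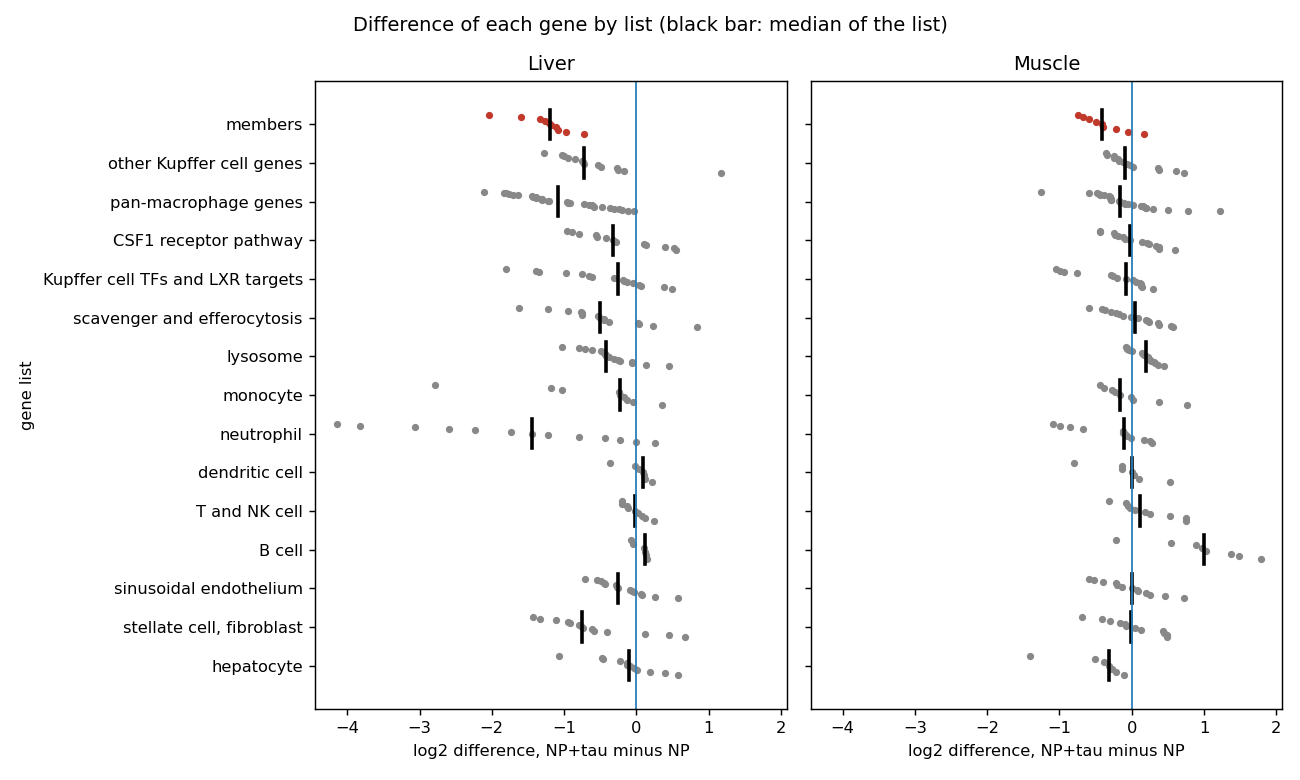
Log2 difference, NP+tau minus NP (x axis, the same in both panels), of each gene that could be read, by gene list (y axis), in liver (left) and muscle (right), with the members in red and a black bar at the median of each list. In liver the members, the pan-macrophage and the neutrophil lists lie farthest below 0, at medians of -1.20, -1.09 and -1.45, and in muscle the members' median is -0.41.

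Markers of neutrophils moved with the members in liver. Of 13 neutrophil genes 11 were lower and 7 had groups without overlap, with a median of -1.45, and the mean level of the list was 5.58, 5.14 and 5.05 in NP+tau livers and 8.38, 6.01 and 6.33 in NP livers. S100a8, a subunit of calprotectin, read 6.52, 5.49 and 5.87 in NP+tau livers and 12.75, 8.74 and 8.81 in NP livers. NP replicate 1 was thus the highest liver for neutrophil genes as it was for most members. Without that liver the members' median was -0.92, and without NP+tau replicate 1, the array that stood apart, it was -1.48. With both left out together the median was -1.06, and 2 genes of the lists passed limma's test, S100a8 (adjusted p = 0.0228) and S100a9 (adjusted p = 0.0144).

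Markers of stellate cells and fibroblasts also ran with the members. Of 14 such genes 11 were lower and 6 of them had groups without overlap, with a median of -0.75, close to that of the other Kupffer cell genes. By limma an unadjusted p under 0.05 was given to 7 of the lower genes and to 1 higher gene, and 0 passed after adjustment. Of 9 monocyte genes 8 were lower, 3 without overlap, with a median of -0.23. Of 8 erythroid genes 7 were lower, 0 without overlap, with a median of -0.32. The monocyte genes Chil3 and Vcan and the erythroid gene Rhag reached the limit for dim probes only in NP livers, so the filter favoured a lower NP+tau mean for them. Of 15 genes of the sinusoidal endothelium 11 were lower, 2 without overlap, with a median of -0.26. T and NK cell genes had a median of -0.01, dendritic cell genes of 0.09, B cell genes of 0.11 and hepatocyte genes of -0.11. The mean levels over the 6 livers were low for T and NK (5.17 to 5.27), dendritic (4.77 to 5.21) and B cell genes (5.20 to 5.36). These lie near the limit of 4.60, where a probe set carries mostly background. Their medians near 0 therefore cannot show whether those cells changed. Proliferation genes were lower in 11 of 11 cases with a median of -0.77 and 0 free of overlap, and their mean level was 5.01 in NP+tau replicate 2, the liver lowest for the members, against 6.96 to 8.25 in the other 5 livers. The part of neutrophil, monocyte or erythroid content, of fibroblasts, of proliferation or of the outlying array in the members' values was not tested.

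**Figure D4:**
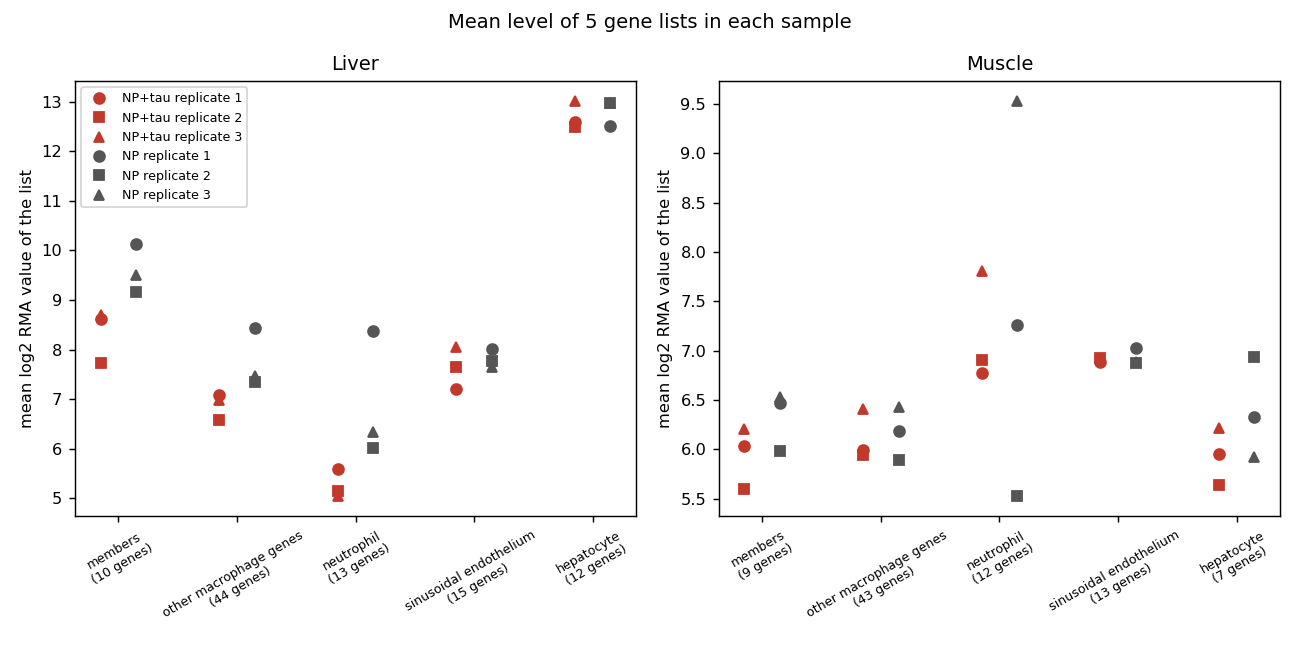
Mean log2 RMA value (y axis) of 5 gene lists (x axis, with the number of genes read) in each sample of liver (left) and muscle (right), NP+tau in red left of NP in grey. The NP+tau livers lie below the NP livers for the members, for other macrophage genes and for neutrophil genes, and in muscle the neutrophil level runs between 5.53 and 9.53 within the NP group.

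In muscle the same contrast was tested, and none of the members passed. Of the 15 probe sets 13 were above the limit for dim probes, and these covered 9 of the 10 genes. Limma with Benjamini-Hochberg adjustment over the 29274 probe sets of muscle called 0 of the 13 and 0% of all, with 0 of the 13 at an unadjusted p under 0.05. Over all probe sets 1793 had an unadjusted p under 0.05, and the smallest adjusted p was 0.342. Of the 9 members read, 8 averaged lower in NP+tau muscle and 1 higher, with a median difference of -0.41 where that of all genes was 0.03. Among all genes 45.4% had a lower mean in NP+tau muscle, 7.25% had all NP+tau values below all NP values and 8.44% had all of them above, and 2.08% were lower at an unadjusted p under 0.05. Only 2 of the 9, Cd5l and Clec4f, were without overlap in the lower direction.

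The receptors typical of Kupffer cells gave little signal in muscle. Vsig4 ran between 3.73 and 4.16 over the 6 muscles, under the limit of 4.49, and was not tested. Marco read 4.21, 4.12 and 4.55 in NP+tau muscle and 4.04, 4.10 and 4.24 in NP muscle, and only 1 array lifted it above the limit. Clec4f read 4.80, 4.76 and 4.71 in NP+tau muscle and 4.90, 5.22 and 4.80 in NP muscle, and Cd5l read 4.17, 4.09 and 4.07 in NP+tau muscle and 4.78, 4.49 and 4.23 in NP muscle. Both genes without overlap thus stood within 1 unit of the limit, where a probe set carries mostly background, and Cd5l passed the limit through the NP group, where it was higher.

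Among the members that macrophages of many tissues share, the C1q chains and Csf1r were well above the limit in muscle, and their groups overlapped. Cd68 ran as low as 4.64 in NP replicate 2, near the limit of 4.49. C1qa read 6.69, 5.79 and 7.10 in NP+tau muscle and 7.18, 6.70 and 7.45 in NP muscle (difference -0.59 ± 0.36 SE, adjusted p = 0.708 by limma). C1qb read 7.13, 5.99 and 6.87 in NP+tau muscle and 7.74, 6.70 and 7.57 in NP muscle (difference -0.67 ± 0.38 SE, adjusted p = 0.708 by limma). C1qc read 7.07, 6.00 and 7.27 in NP+tau muscle and 7.49, 6.77 and 7.56 in NP muscle (difference -0.50 ± 0.37 SE, adjusted p = 0.717 by limma). In all 3 chains NP+tau replicate 2 was the lowest muscle, and the chains followed each other over the 6 muscles at r between 0.89 and 0.98. The brightest Csf1r probe set read 8.52, 8.34 and 9.12 in NP+tau muscle and 8.75, 8.79 and 9.66 in NP muscle (difference -0.41 ± 0.31 SE, adjusted p = 0.718 by limma). The other Csf1r probe sets differed by -0.53 ± 0.29 and by -0.49 ± 0.21 (SE), and the second of these had an unadjusted p of 0.0537 by limma, the smallest of the 13.

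Cd163 had the largest difference of the members in muscle, -0.74 ± 0.60 (SE), with 6.40, 4.80 and 6.91 in NP+tau muscle and 7.66, 6.39 and 6.29 in NP muscle. That size rested on single arrays, since the difference of Cd163 was -0.12 without NP+tau replicate 2 and -0.30 without NP replicate 1. Without NP+tau replicate 2 the differences were also smaller for C1qa (-0.22), C1qb (-0.33), C1qc (-0.11) and Csf1r (-0.25), and the median over the 9 genes was -0.22. Csf1r differed by -0.11 without NP replicate 3. Cd68 read 5.35, 6.50 and 5.22 in NP+tau muscle and 5.64, 4.64 and 6.93 in NP muscle, a difference of -0.05 ± 0.60 (SE) whose sign turned when NP+tau replicate 1, NP+tau replicate 3 or NP replicate 3 was left out (0.12, 0.18 and 0.55). Averaged over the 9 genes, the deviation from the NP mean was -0.29, -0.73 and -0.12 in NP+tau replicates 1, 2 and 3, and 0.14, -0.35 and 0.20 in the NP replicates. NP+tau replicate 2, the number that was lowest in liver, also had the lowest value of 5 of the 9 genes in muscle and was below all NP muscles for 7 of them, where 31.6% of all genes were. Replicate 1 was below for 4 and replicate 3 for 2 of the 9, against 21.4% and 30% of all genes. The 36 pairs of members correlated in muscle at r between -0.64 and 0.98 with a median of 0.28, and 6 pairs were over 0.8, against 30 of 45 in liver. Whether the liver and muscle differences of the members differ was not tested, because the liver contrast chose the members and the tissues were normalised apart.

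Of the other macrophage genes, 43 could be read in muscle, of which 28 averaged lower and 15 higher, with a median of -0.16. Without overlap 6 were lower and 2 higher. By limma 0 passed, and an unadjusted p under 0.05 was given to 3 that were lower and to 3 that were higher. Adgre1 read 6.75, 6.34 and 6.45 in NP+tau muscle and 6.78, 6.98 and 6.83 in NP muscle, a separation of less than 0.1 between the groups (difference -0.36 ± 0.16 SE, adjusted p = 0.707 by limma). Lgals3, a galectin of activated macrophages, differed by -1.26 ± 0.47 (SE), and Cdh5, the cadherin of endothelial junctions that Kupffer cells also carry, by 0.73 ± 0.13 (SE), both with an adjusted p of 0.707 by limma. Neutrophil genes varied within the groups of muscle, with a mean level of 6.78, 6.91 and 7.80 in NP+tau muscle and 7.26, 5.53 and 9.53 in NP muscle.

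Muscle NP+tau replicate 3 stood apart for genes of lymphoid and red blood cells. The mean level of B cell genes was 7.59 there, against 4.80 to 5.09 in the other 5 muscles, and the median difference of this list was 1.00. T and NK cell genes had a mean level of 5.99 in that muscle, against 5.02 to 5.20 in the others, and erythroid genes of 8.61, against 5.83 to 7.02. Ptprc read 5.52, 5.40 and 10.04 in NP+tau muscle and 5.18, 4.78 and 7.35 in NP muscle, so that the marker of all white blood cells was highest in the same array. Without NP+tau replicate 3 the members' median in muscle was -0.64 in place of -0.41. The part of neutrophil, lymphoid or erythroid content in the muscle values of the members was not tested.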

How the data were processed

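Liver and quadriceps RNA of 4-week-old offspring was hybridised to 12 Affymetrix arrays, 3 NP+tau and 3 NP in each tissue. The authors normalised the arrays by quantiles and deposited log2 values summarised by RMA, with liver and muscle handled apart, so that no level was compared between tissues. RMA draws low signals together and understates differences of dim probe sets. The number of arrays limits the precision.

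From these values, 64 control probe sets were removed, and within each tissue probe sets stayed in if their highest value reached the 35th percentile of the highest values (29274 probe sets, limits 4.60 in liver and 4.49 in muscle). Symbols came from the platform annotation given with the series: 34958 probe sets had 1 symbol, 932 several and 9211 none, and only those with 1 were named. A gene was read from its kept probe set of highest mean. For each tissue the difference of NP+tau from NP was fitted with limma 3.58.1 (lmFit, eBayes; R 4.3.3) without covariates, and p was adjusted by Benjamini-Hochberg over all kept probe sets with a threshold of 0.05. The study's own tests of these samples were not used here. The fit was tested on simulated data.

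The members and gene lists were chosen with earlier results of these data known. Besides the members, the genes named are up to 3 of each list with the smallest unadjusted p, those that lay the other way, defining markers, and the 8 genes closest to the members over the livers by Pearson's r. Csf1, Spi1, Nr1h3, Adgre1, Spic and Hmox1 were also named for their roles, with values known. Promoters came from RefSeq (GRCm38.p6). Alternatives were the filter, an intensity trend, array weights, centring, a replicate block, Xist as covariate, a threshold of 0.1, the mean of a gene's probe sets and leaving out replicates. Replicate numbers were not taken as pairs. Deviations of same-numbered NP+tau and NP samples correlated at -0.27 to 0.33 and those of different-numbered ones at -0.28 to 0.40. With 3 samples a group such correlations cannot settle whether a pairing existed. Figures were drawn with matplotlib 3.10.9.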

Additional observations from a re-analysis of the deposited data

Results flagged for a closer look

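Among the genes of the lists, Acta1, the actin of skeletal muscle fibres, was the one whose NP+tau values lay wholly above the NP values in liver and wholly below them in muscle. The difference was 0.52 in liver, with 6.11, 5.08 and 5.21 in NP+tau livers and 4.81 to 5.04 in NP livers, and -0.0371 in muscle. Apart from NP+tau replicate 1, the liver values lay near the limit of 4.60 for dim probe sets. The highest value, 6.11, came from NP+tau replicate 1, the array that stood apart. In that array the mean level of 11 skeletal muscle genes was 5.32, against 4.55 to 4.63 in the other livers, and 10 of the 11 averaged higher in NP+tau livers. The difference between the tissues was not tested.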

How the results depend on the processing

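The members' liver median lay between -1.48 and -0.91. It was -1.20 under both filters, the intensity trend, the replicate block and the mean of a gene's probe sets, of which the trend and the block cannot move a difference of means here. With centring 5 of the 10 members were without overlap, and leaving out arrays can only keep or raise such counts. Of the single members, Csf1r alone turned in liver, to 0.0955 with Xist as a covariate. That covariate left 9449 liver probe sets and 44 genes of the lists called. Xist was low only in NP+tau replicates 2 and 3, so the taurine difference then rests largely on NP+tau replicate 1, the array that stood apart. The part of that array in these calls was not tested. Liver calls numbered 8 with array weights, 9 without both replicates 1, and 0 to 9 with single replicates left out (9 without NP+tau replicate 1, 1 without NP replicate 3), and 2 genes of the lists were called without both replicates 1. In muscle 0 member probe sets were called in any of the 15 alternatives and the median lay between -0.64 and -0.22. Muscle calls numbered 3 without both replicates 1 and 0 to 8 with single replicates left out (8 without NP+tau replicate 1). Members without overlap in muscle numbered 1 with the stricter filter, 1 with centring and 2 to 5 with single replicates left out (4 without NP+tau replicate 3, 5 without NP replicate 2). Marco in muscle turned to -0.0152 with no filter, which reads its other probe set, and Cd68 turned to 0.00248 with array weights, to 0.0728 without both replicates 1, and ranged between -0.60 and 0.55 with single replicates left out. Where a cause is not named, the cause was not tested. With the replicate block, for which no pairing was stated, 0 probe sets were called in either tissue and the medians were -1.20 in liver and -0.41 in muscle. With 3 samples a group, 1 array apart and sex overlapping with taurine, the liver values describe these 6 animals.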
